A study of Bos taurus with 9 samples.

Results

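The experiment described here set 3 pools of mature cattle (Bos taurus) oocytes that had matured with dichloroacetate against 3 control pools, 6 of the 9 libraries of the series. The members were chosen by the treatment in the labels, DCA for dichloroacetate and CTRL for the control, and the comparison covers all expressed genes. The libraries numbered 16, 17 and 18 in the sample titles received dichloroacetate, and those numbered 22, 23 and 24 were controls. They are called libraries 1, 2 and 3 of their group, in the order of the titles. The difference was estimated within pairs of libraries at the same place in the title order (16 with 22, 17 with 23 and 18 with 24), and again without pairs. The labels do not state such pairs, so they are an assumption, and they were proposed after earlier results of these data had shown that libraries at the same place deviate together.

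Both groups started from cumulus-oocyte complexes taken out of 2 to 4 mm follicles of slaughterhouse ovaries. The complexes matured in vitro for 24 h in the same medium, with follicle-stimulating hormone, chorionic gonadotropin, estradiol and serum. The labels list 4 doses of dichloroacetate between 0.1 and 5 mM and do not say which the sequenced oocytes received. Each library came from 5 denuded oocytes with a first polar body, so the treatment reached the oocyte together with its cumulus cells while the RNA is that of the oocytes. A pool averages its oocytes, and a lower level in some oocytes cannot be told apart from a lower level in all. Whether pools of a group came from separate ovary collections is not stated, and the p-values cover only the variation among these libraries, technical variation included. The labels give no breed or age for the animals. The third group of the series, matured with iodoacetate, enters only 1 alternative fit.

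Dichloroacetate inhibits the pyruvate dehydrogenase kinases. These kinases phosphorylate and switch off the pyruvate dehydrogenase complex, which turns pyruvate into acetyl-CoA in the mitochondrion, so their inhibition favours the entry of pyruvate into the citric acid cycle. Acetyl-CoA is also the donor of the acetyl groups placed on histones. The bovine oocyte takes up pyruvate supplied by its cumulus cells as a main fuel. A mature oocyte transcribes little and holds messenger RNA stored during growth, whose poly(A) tails are lengthened or shortened during maturation. The libraries were primed on poly(A) tails, so a change in the amount of a transcript and a change in its tail cannot be told apart.

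The 6 libraries held 7776877 to 9834849 counts. The dichloroacetate libraries had 7776877 to 9077383 counts and the controls 9249890 to 9834849, so that every treated library was below every control library. The exact two-sided permutation p was 0.1, the smallest that 3 libraries against 3 can give, and 0.3 after adjustment over 3 such tests. Within the title-order pairs the treated library held 91.6%, 98.1% and 79.1% of the counts of its control. Detected genes numbered 15150 to 15516 with dichloroacetate and 15322 to 15351 in the control (exact permutation p = 0.8), and the 10 most abundant genes took 7.99% to 10.3% and 7.63% to 9.35% of counts (exact permutation p = 0.5). The files name genes by Ensembl identifiers only, and 0 of the 15978 identifiers could be matched to a symbol. Markers of oocytes and cumulus cells and genes of pyruvate metabolism were therefore not analysed here, and the 4 genes described below are given by identifier, without their function.

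Libraries at the same place in the title order deviated together. After the mean of each group was removed from log2 CPM (counts scaled to a common library size, on a log2 scale with a prior count of 2), the deviations correlated across 11611 genes with r = 0.195 between the libraries at place 1, 0.457 at place 2 and 0.243 at place 3. The 6 combinations of unlike places gave -0.33 to 0.15, and the highest of these joined dichloroacetate library 3 with control library 1. Each of the 6 libraries correlated best with the library of the other group at its own place. By the chi-square distance of their raw counts, control library 1 was slightly closer to dichloroacetate library 3 (21.0 per degree of freedom) than to dichloroacetate library 1 (21.7), while each of the other 5 was closest, in the other group, to the library at its own place. Deviations sum to 0 within a group, so these values depend on each other, and genes are not replicates. The main axis of the deviations held 45.8% of their variance and set the libraries at place 2 apart, with scores of 28.7 for dichloroacetate library 2 and 42.4 for control library 2 against -32.5 to -9.94 for the other 4. Values without them are given below for the variance shares, the block term, the standard errors and intervals, the bands of abundance and the counts of genes.

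**Figure D1:**
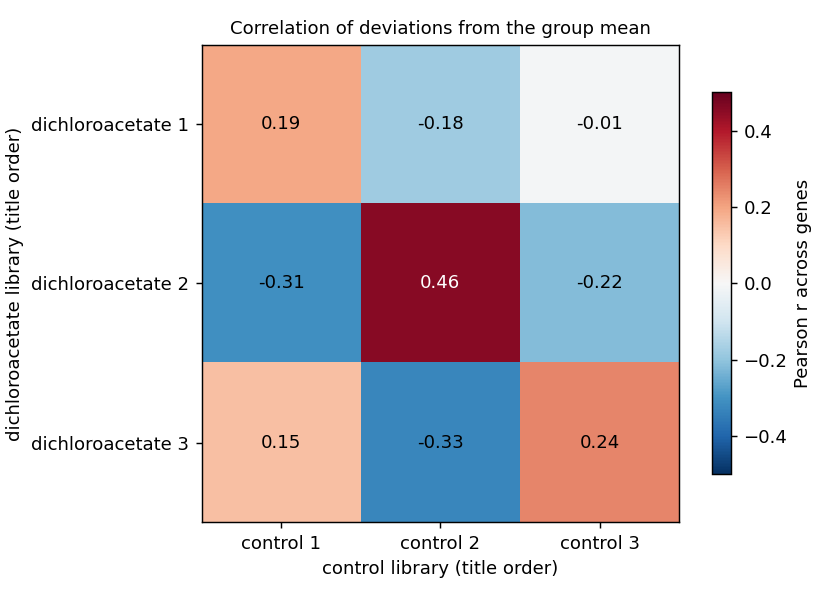
Pearson correlation, across 11611 genes, of each dichloroacetate library's deviation from its group mean (vertical axis) with that of each control library (horizontal axis), in title order. The 3 cells on the diagonal, the assumed pairs, hold 0.195, 0.457 and 0.243, and place 2 is the highest.

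Most of the spread in the 6 libraries lay along the assumed blocks. Of the total variance of log2 CPM summed over the 11611 genes, the block took 51.3%, the treatment 21.6% and the remainder 27.1%, where their degrees of freedom alone would give 40%, 20% and 40%. For the 4120 genes with a mean log2 CPM above 5, called the abundant genes from here on, the shares were 58.3%, 21.9% and 19.8%. The treatment's share of the total was thus close to what its single degree of freedom gives. The fit with the block sets the treatment against the remainder instead, which has 2 degrees of freedom. Per degree of freedom the treatment took more than the remainder, in all genes and in the abundant genes. These shares were not tested. Without the libraries at place 2, the block took 35.4%, the treatment 35.8% and the remainder 28.8% over 11530 genes, where equal degrees of freedom would give 33.3% each. By edgeR's quasi-likelihood F test (Benjamini-Hochberg adjusted), 539 genes (4.64%) had an adjusted p under 0.05 for the block itself, and 67 without the libraries at place 2. Since the block was proposed from the same data, that count describes the libraries and is no independent evidence for pairs.

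With the block, no transcript passed the test between dichloroacetate and control, but small p-values were more frequent than without it. In edgeR's quasi-likelihood test with the title-order block, 0 of 11611 genes had an adjusted p under 0.05 (percent called 0), and the smallest adjusted p was 0.0716. The genes at an unadjusted p under 0.05 numbered 1630, or 14% of those tested, 798 higher and 832 lower with dichloroacetate. The balance of directions depended on the scaling, with 828 higher and 782 lower under RLE scaling and 652 higher and 973 lower with scaling by library totals only. Without the block, edgeR also called 0 genes (percent called 0), with a smallest adjusted p of 0.827. There, 664 genes, or 5.72%, had an unadjusted p under 0.05, 299 higher and 365 lower. An even spread of p-values would give 5%. The block was chosen with earlier results of these data known, and the p-values with it do not account for that choice. The larger number of small p-values with the block is therefore no independent evidence for pairs. Under the block, limma with voom weights called 0 genes and had 1672 at an unadjusted p under 0.05, while DESeq2 called 136 and voom with quality weights 140. Without the block, DESeq2 called 1 gene and voom 0.

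**Figure D2:**
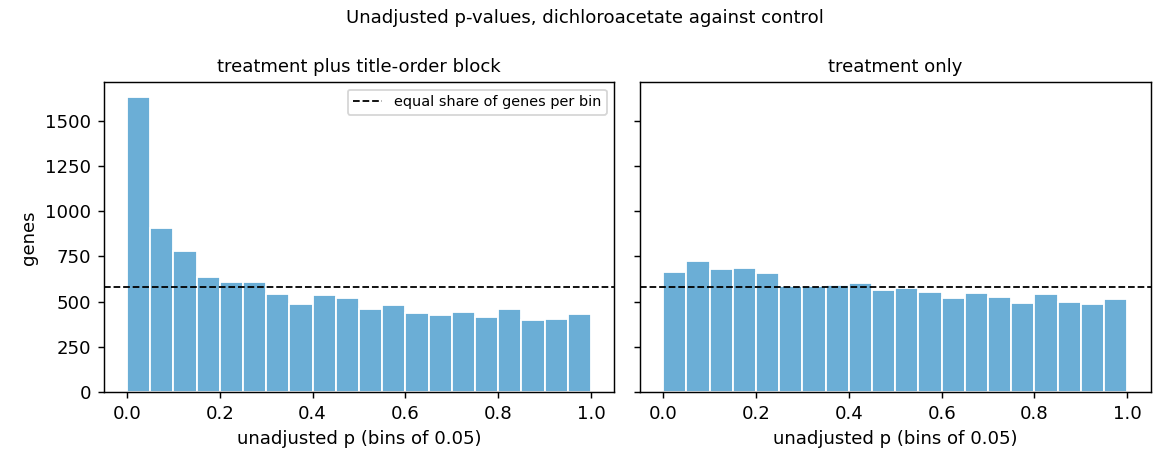
Number of genes (vertical axis) in each bin of unadjusted p (horizontal axis) for treatment plus block (left) and treatment only (right); the dashed line marks an equal share of the 11611 genes per bin. The lowest bin holds 1630 genes with the block and 664 without it.

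Among the genes with the same direction in all 3 pairs, the 2 with the smallest p in each direction had estimated differences that did not pass the test. Their adjusted p was 0.0716 in edgeR's quasi-likelihood test with the block and 0.827 without it. ENSBTAG00000051367 stood at 19.5, 19.2 and 28.2 CPM in dichloroacetate libraries 1, 2 and 3 and at 5.93, 8.75 and 12.1 CPM in the controls. All 3 treated libraries lay above all 3 controls, and the ratios within pairs were 3.29, 2.19 and 2.33. The group means were 22.3 ± 5.11 and 8.94 ± 3.10 CPM (SD, n = 3 each), and the log2 fold change with the block was 1.35 with a standard error of 0.23. It is a transcript of modest abundance, resting on 56 to 206 counts per library.

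ENSBTAG00000001348, a more abundant transcript, stood at 219.8, 149.9 and 181 CPM with dichloroacetate and at 117, 69.6 and 117 CPM in the control. The groups did not overlap, and in both of them library 2 was the lowest. The ratios within pairs were 1.88, 2.15 and 1.55, and the means were 184 ± 35.0 and 101 ± 27.3 CPM (SD, n = 3 each). Its log2 fold change was 0.88 in the fit with the block, with a standard error of 0.16, and 0.86 without it, with a standard error of 0.24. For this gene the shared low place of the second libraries went with a smaller standard error once pairs were assumed.

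ENSBTAG00000054102 stood at 29.2, 25.3 and 14.0 CPM with dichloroacetate and at 66.1, 49.0 and 43.8 CPM in the control. The treated libraries were all below the controls, and in both groups library 1 was the highest and library 3 the lowest. The treated library held 0.442, 0.517 and 0.319 times the level of its control, and the means were 22.8 ± 7.93 and 52.9 ± 11.7 CPM (SD, n = 3 each). The log2 fold change was -1.25 with a standard error of 0.20 in the fit with the block, and -1.21 with a standard error of 0.29 without it.

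ENSBTAG00000024431 stood at 25.5, 45.2 and 26.8 CPM with dichloroacetate and at 70.6, 69.6 and 72.8 CPM in the control. The controls were nearly level, and dichloroacetate library 2 was the treated library closest to them. The ratios within pairs were 0.362, 0.650 and 0.369, and the means were 32.5 ± 11 and 71.0 ± 1.61 CPM (SD, n = 3 each). The log2 fold change with the block was -1.17 with a standard error of 0.21, against -1.12 with 0.25 without it. Unlike the other 3 genes, its unadjusted p for the block term was above 0.05, at 0.233. Without the libraries at place 2, the log2 fold changes were 1.45 for ENSBTAG00000051367, 0.77 for ENSBTAG00000001348, -1.40 for ENSBTAG00000054102 and -1.45 for ENSBTAG00000024431. In that edgeR quasi-likelihood fit the adjusted p-values were 0.0490, 0.142, 0.0285 and 0.0163 in the same order. The genes had been chosen for a small p and the same direction in libraries that this fit uses again. The fit also leaves only 1 residual degree of freedom per gene. The values under 0.05 are therefore no separate support for these genes.

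**Figure D3:**
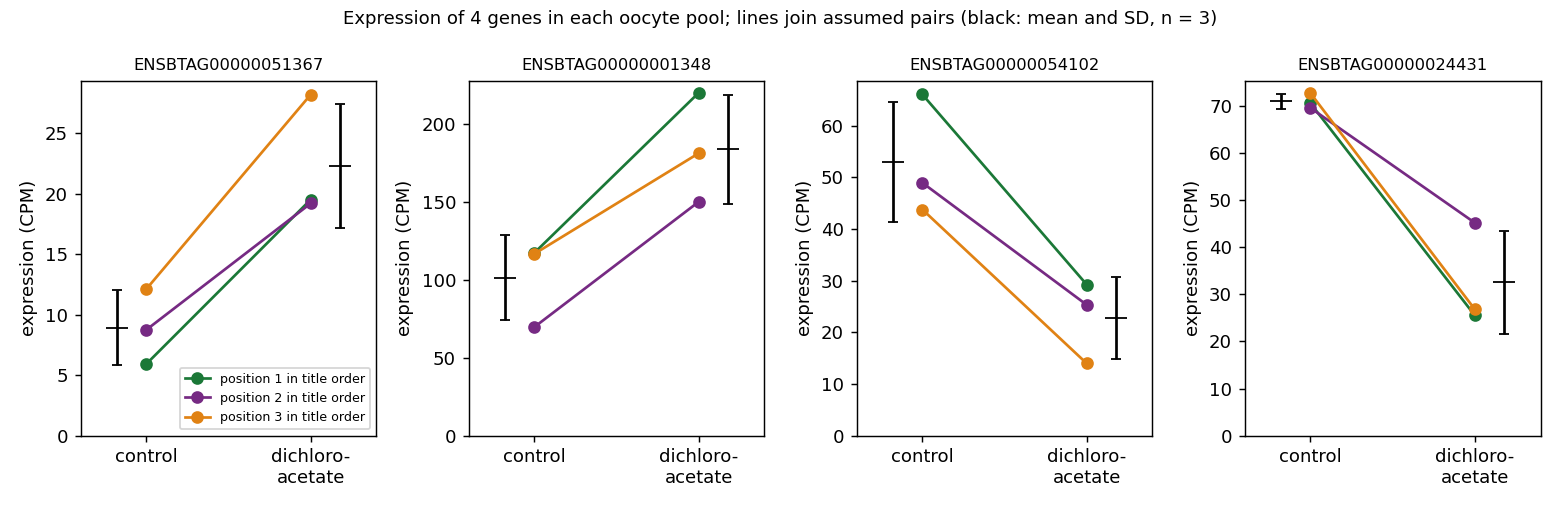
Expression in CPM (vertical axes, from 0) of 4 genes in the control and dichloroacetate pools; coloured lines join libraries at the same place in the title order, and black marks give the mean and SD of 3 libraries. In each of the 4 genes all lines run in the same direction, for which the genes were chosen, and the groups do not overlap.

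The block changed the standard errors far more than the estimated differences. Each block holds a library of each group, so by this layout both fits estimate nearly the same difference. The median absolute change in the log2 fold change between the fits was 0.02. The standard error was smaller with the block for 11260 of 11611 genes (97.0%), with a median ratio of 0.833. Its median was 0.24 on the log2 scale with the block and 0.30 without it, and 0.17 against 0.23 for the abundant genes. The block was proposed because these libraries deviate together, so smaller standard errors with it were likely beforehand. They are no independent evidence for pairs. Without the block 664 genes were at an unadjusted p under 0.05. Of these, 660 (99.4%) were also at that level with it, and they made up 40.5% of the 1630. All 1630 had the same direction in both fits, which the layout makes nearly certain. Their unadjusted p without the block had a median of 0.0606 and reached 0.446. The treated and control libraries did not overlap for 678 of the 1630 genes, and for 1277 (11%) of all genes tested. With the libraries in random order, 3 against 3 would not overlap with a probability of 0.1. For the other 952 genes at an unadjusted p under 0.05 the groups overlapped in level. Of these, 825 had the same direction in all 3 pairs, against 36.7% of all genes tested, and for 127 the pairs differed in sign. A small p in the fit with the block favours genes whose pairs agree, so this count is no separate support. Without the libraries at place 2, the block no longer lowered the standard error of most genes. With the block 49.4% of 11530 genes had a smaller one, and the median ratio was 1.00. The median standard error was 0.309 with the block and 0.319 without it, and 0.230 against 0.238 for the abundant genes. The genes at an unadjusted p under 0.05 numbered 1068 (9.26%) with the block and 827 (7.17%) without it.

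The interval of the difference bounds how large a relative effect could be in most transcripts, if the pairs are real. Libraries were scaled to each other, so a difference shared by most transcripts is not covered. With the block, the 95% confidence interval stayed inside a 2-fold difference, up or down, for 68.2% of genes and for 96.7% of the abundant genes. Without it these shares were 57.5% and 88.1%. Without the libraries at place 2 they were 55.3% and 91.9% with the block and 52.7% and 89.0% without it. An estimated difference above 2-fold was seen for 274 genes, 6 of them abundant, and above 4-fold for 6 genes. The 1630 genes at an unadjusted p under 0.05 had a median absolute log2 fold change of 0.59, a 1.50-fold difference, and 228 of them exceeded 2-fold. Over all genes tested the median was 0.24, a 1.18-fold difference. Picking genes by a small p in the same libraries favours large estimates.

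Small p-values were most frequent among the most abundant transcripts once the block was fitted. At an unadjusted p under 0.05 were 7.94% of the 2870 genes with a mean log2 CPM below 2, 12.8% of 4621 between 2 and 5, 17.5% of 3329 between 5 and 8, and 29.1% of 791 above 8. Without the block the shares were 5.12%, 5.86%, 5.89% and 6.32%. Above 8, 141 genes were higher and 89 lower with dichloroacetate, while below 2 the numbers were 104 and 124. All genes of these bands leaned the same way, with a median log2 fold change of 0.036 above 8 and -0.042 below 2. The balance of directions over all bands depended on the scaling, as given above. Without the libraries at place 2 the shares with the block were 6.69%, 7.72%, 10.1% and 24.4%, and without it 6.04%, 6.51%, 7.46% and 14.1%. The median standard error of all 6 libraries with the block went from 0.44 in the lowest band to 0.14 in the highest. With every library thinned to the smallest total (a setting added after seeing the data), 14.0% of 11109 genes were still at that level. Whether the lower totals of the treated libraries play a part in the trend with abundance was not tested.

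**Figure D4:**
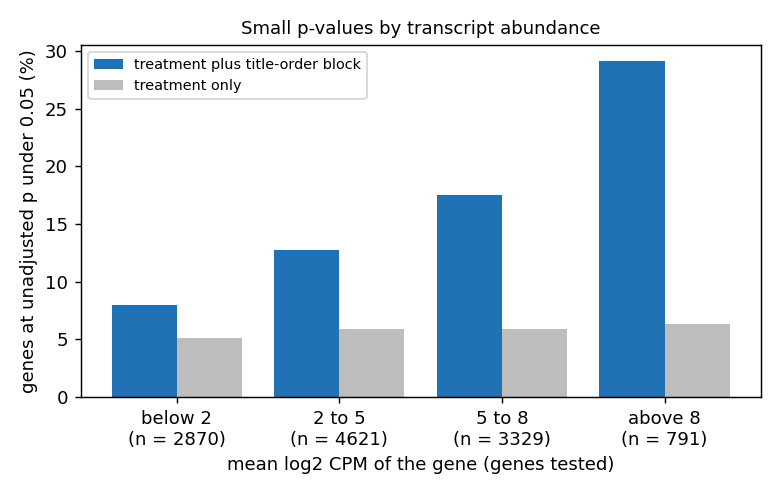
Percentage of genes at an unadjusted p under 0.05 (vertical axis) in 4 bands of mean log2 CPM (horizontal axis, with the genes tested in each), for treatment plus block (blue) and treatment only (grey). With the block the share goes from 7.94% in the lowest band to 29.1% in the highest, and without it from 5.12% to 6.32%.

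The 3 pairs did not give the same picture of dichloroacetate. Differences within pairs use separate libraries, so they can be set against each other. Across the 4120 abundant genes the differences of pairs 2 and 3 correlated with r = 0.551, those of pairs 1 and 3 with 0.185 and those of pairs 1 and 2 with 0.151. Over all 11611 genes the values were 0.314, 0.108 and 0.0640. These correlations are across genes and carry no test. All 3 pairs had the same sign for 4259 genes (36.7%), 2064 higher and 2195 lower with dichloroacetate. Part of such agreement arises without any shared difference, and the share was not tested.

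**Figure D5:**
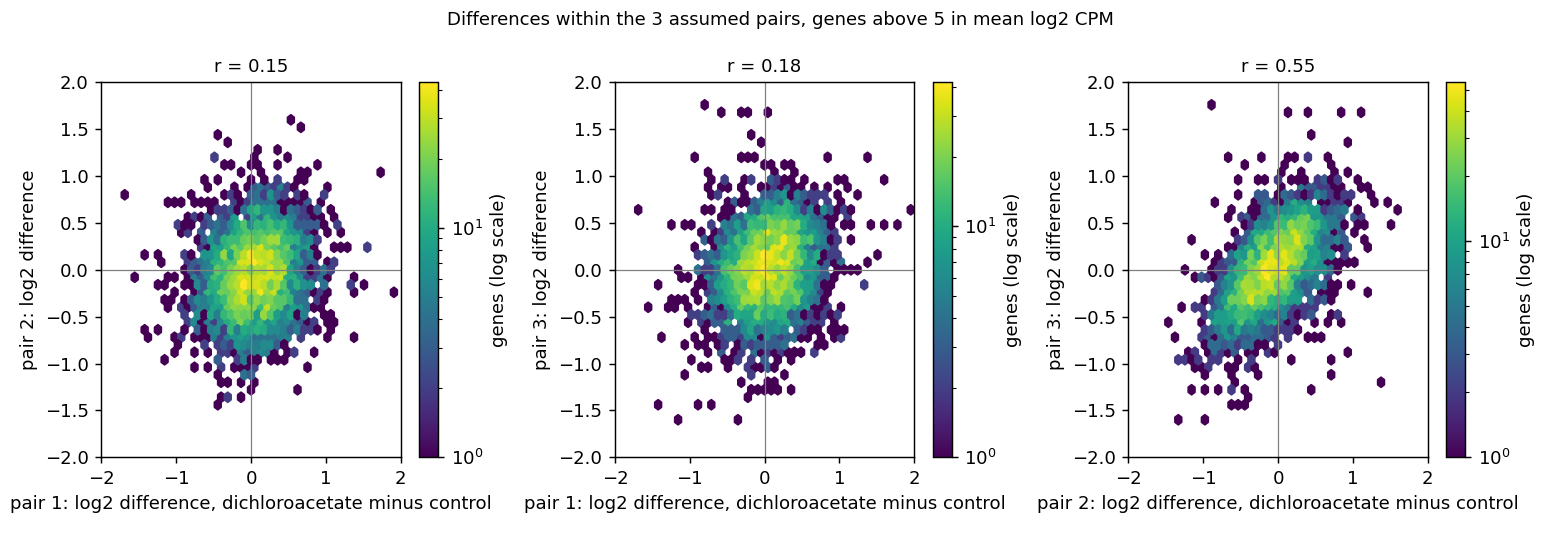
Log2 differences, dichloroacetate minus control, within one pair against another, for the 4120 abundant genes; colour gives the number of genes per cell on a log scale, and 5 genes lie beyond the axes in at least 1 pair. Pairs 2 and 3 (right, r = 0.551) lie along the diagonal more than pair 1 does with either of the others.

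Leaving out 1 pair changed the number of genes called. Without pair 1, edgeR's quasi-likelihood test called 234 of 11857 genes (1.97%), 109 higher and 125 lower. Without pair 2 it called 16 of 11530 (0.139%), and without pair 3 it called 15 of 11771 (0.127%). With only 2 pairs a single residual degree of freedom is left per gene, and without pair 3 the fit shared its estimate of the spread almost wholly across genes.

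The pair left out took no part in those calls, so it shows whether the direction recurred. Of the 234 genes called from pairs 2 and 3, 164 (70.1%) had the same direction in pair 1, against 54.4% of all genes tested. Their median absolute log2 fold change was 0.85 in the pairs that chose them and their median difference in that direction was 0.22 in pair 1. Of the 16 genes called from pairs 1 and 3, 12 had the same direction in pair 2, against 61.2% of all genes. Of the 15 called from pairs 1 and 2, 12 had the same direction in pair 3, against 63.7% of all genes. In the wider set at an unadjusted p under 0.05 these shares were 62.3% of 2538 genes, 75.8% of 1068 and 82.3% of 872 for pairs 1, 2 and 3 left out. Among all abundant genes tested they were 57.4%, 66.0% and 69.0%. The shares of the chosen genes were above those of all genes and of abundant genes for each pair, but the difference was not tested, and 16 and 15 genes are few.

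The tools shared part of the genes they ranked first. At an adjusted p under 0.1, edgeR's test with the block gave 93 genes, 50 higher and 43 lower. DESeq2 with the block gave an adjusted p to 6988 genes and called 136 (1.95%), 76 higher and 60 lower, and voom with quality weights called 140 of 11611 (1.21%), 66 higher and 74 lower. DESeq2 called 86 of the 93 genes, or 92.5%, which is 63.2% of its own calls. Voom with quality weights also called 86 of the 93, which is 61.4% of its calls. In all, 80 genes were in all 3 sets, and 175 in at least 1. The 136 DESeq2 genes had an unadjusted p of at most 0.00474 in edgeR, and all had the same direction in the 3 pairs. Of the 140 genes called with quality weights, 139 had an unadjusted p under 0.05 in edgeR, the largest being 0.282, and 137 had the same direction in the 3 pairs. Over all 11611 genes tested, 36.7% had the same direction in the 3 pairs. A small p in a fit with pairs favours such genes, so these counts are no separate support. The fits that left out a pair overlapped less. Of the 93 genes, 63 were also called without pair 1, or 26.9% of the 234 called there, 6 without pair 2 and 7 without pair 3, and the sets without pair 2 and without pair 3 shared 0 genes. Of the 93, 64 were abundant, against 4120 of all 11611 genes tested, and 27 exceeded 2-fold, against 274 of all. The groups did not overlap for 59, against 11% of all genes tested. The 93 were picked by a small p in the same libraries, which favours such traits. These fits use the same 6 libraries, so their overlap does not replicate the difference. With the iodoacetate libraries added to estimate the block and the spread, 5 of 12016 genes (0.0416%) were called, 4 higher and 1 lower. ENSBTAG00000001348 and ENSBTAG00000024431 were among them, at an adjusted p of 0.0361 each in edgeR's quasi-likelihood test. The other named genes did not pass in that fit. The adjusted p was 0.724 for ENSBTAG00000051367, at a log2 fold change of 1.32, and 0.0624 for ENSBTAG00000054102.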

How the data were processed

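The authors deposited 1 table of raw read counts per gene, with no normalization. The submitters' processing notes name cutadapt, Trim Galore, STAR, featureCounts and DESeq2. For tool versions, genome build, annotation and counting mode the entry is "not given in the sources used here", so reads of near-identical or overlapping genes can be divided in an unknown way. Per the labels' protocols, the kits were SMART-Seq HT and Nextera XT, with 100 bp paired-end reads. Strand and molecule are not marked, so the counts include copies made by amplification.

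Columns were matched to samples by title. Counts of the 6 libraries were fitted with edgeR 4.0.16 in R 4.3.3 (TMM normalization, default expression filter by group, robust quasi-likelihood test), with treatment and a block for place in the title order, and with treatment alone. The filter kept 11611 of 15978 genes. Benjamini-Hochberg adjustment ran over all genes tested, and a call needed an adjusted p under 0.05. With the block each gene has 2 residual degrees of freedom, and sharing information across genes raised the median total to 15.1. Standard errors come from the quasi-likelihood F statistic. Libraries of a group differed beyond counting noise (chi-square of 14.8 to 52.8 per degree of freedom), so none was treated as a copy. limma 3.58.1 (voom) and DESeq2 1.42.0 were alternatives. The scripts were tested on simulated data.

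All 3 pairs correlated above 0.1, the level at which same-numbered samples were to be taken as paired. The level did not tell the pairs from other combinations, since dichloroacetate library 3 with control library 1 also passed it, with 0.150. The block was proposed from earlier results of these data, so the outcome was known beforehand. The library numbers come from the order of the titles and not from a stated design, so the pairs remain an assumption. The genes to be named, with no symbols available, were the 2 higher and 2 lower genes of smallest p in the fit with the block that had the same direction in all 3 pairs. Members, block, lists and tests were chosen with earlier results of these data known. The 24 gene lists set out by symbol were not used, since the identifiers have no symbols here.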

Additional observations from a re-analysis of the deposited data

How the results depend on the processing

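The fit with the title-order block called 0 genes in either direction with RLE scaling, limma voom, the stricter filter (at least 5 CPM in 3 libraries), the non-robust fit and counts thinned to the smallest total, an alternative chosen after seeing the data. It called 4 genes higher and 1 lower with all 9 libraries, 76 and 60 with DESeq2, 66 and 74 with voom and quality weights, 17 and 32 with scaling by library totals only, 77 and 54 with no expression filter, and 50 and 43 at an adjusted p threshold of 0.1. Leaving out each pair gave 10 to 109 higher and 5 to 125 lower, and 872 to 2538 genes at an unadjusted p under 0.05. The cause was not tested for these, except that the threshold of 0.1 is wider by construction. With no replicate block, 664 genes were at an unadjusted p under 0.05 against 1630 with the title-order replicate block, and both fits called 0 genes. The block term was called for 539 genes, 1392 with all 9 libraries, 1079 with library totals only, 1079 with no expression filter, 1245 at the threshold of 0.1 and 67 to 1222 when leaving out each pair, the lowest without pair 2. Correlations of the paired deviations at place 2 were 0.320 with no filter and 0.586 with the stricter filter, and at place 3 0.354 with the stricter filter. Without the block, DESeq2 called 1 gene higher, and leaving out 1 library gave 0 to 1 higher (1 without control library 3), 0 lower, and 322 genes (without dichloroacetate library 1) to 1417 (without control library 1) at an unadjusted p under 0.05. The 4 named genes kept their direction in all 14 alternatives, with an adjusted p under 0.05 in 6 or 7 of them. They were chosen for a small p and the same direction in all 3 pairs of these libraries. Refitting the same libraries, or leaving out a pair, could hardly reverse them, so the kept direction is no separate support. The adjusted p-values under 0.05 rest on the same treated and control libraries and are no separate support either. Thinning left 14.0% of 11109 genes at an unadjusted p under 0.05. The gene list alternatives were not run. Amplified reads are not independent molecules, so how far depth limits these counts was not tested.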
